A study of Homo sapiens with 12 samples.

Results

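The genes described here encode the subunits that belong to RNA polymerase II (Pol II) alone, and 8 of the 63241 Ensembl genes in the count table were taken by their symbols. They are POLR2A, POLR2B, POLR2C, POLR2D, POLR2G, POLR2I, POLR2J and POLR2M. The choice was made by what the genes encode, with the higher POLR2A level of these libraries already known, so that level is no independent evidence. Total RNA, depleted of ribosomal RNA, was sequenced from HCT116, a line of human colorectal carcinoma cells, with 4 groups of 3 libraries. The POLR1A-depleted group was an HCT116 line of genotype POLR1A-AID1, whose POLR1A protein carries an auxin-inducible degron, a tag that marks a protein for destruction once a ligand is given. It had doxycycline at 1 µg/ml for 24 h to switch on the receptor OsTIR1, then 500 µM IAA (indole-3-acetic acid) for 8 h. The POLR2A-depleted group was a line of genotype POLR2A-AID2 given 1 µM 5-PH-IAA for 8 h. Wild-type HCT116 cells had actinomycin D, a DNA-binding transcription inhibitor, at 5 µg/mL for 6 h, and the controls were wild-type cells with DMSO for 8 h. These times are those of the titles, while the extraction text gives a harvest at 6 h. No protein level was measured in these libraries. Neither degron line has ligand-free libraries here, so line, inducer, ligand and depletion cannot be told apart. The replicates are dishes treated separately on the same day, which the labels call technical, so p-values measure only the spread between dishes.

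Pol II makes messenger RNA precursors and many non-coding RNAs, while Pol I makes the large ribosomal RNA precursor and Pol III makes transfer RNAs and other short RNAs. POLR2A (RPB1) and POLR2B (RPB2) form the active centre, and POLR2A carries the C-terminal domain, a repeated tail whose phosphorylation marks the stages of transcription. POLR2C (RPB3) and POLR2J (RPB11) pair up early in assembly, POLR2D (RPB4) and POLR2G (RPB7) form the stalk, POLR2I (RPB9) sits at the edge of the jaw, and POLR2M (GDOWN1) binds a fraction of Pol II in animal cells.

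Levels are given as CPM, read counts scaled to a common library size by TMM, a method that corrects for a few genes taking a large share of the reads. A gene is called higher or lower where edgeR's quasi-likelihood test gave a Benjamini-Hochberg adjusted p under 0.05 over the 23593 genes tested, and all 8 genes passed the low-count filter. Library totals were 18796962 to 21802217 counts in the POLR1A-depleted group, 11289094 to 15037410 in the POLR2A-depleted group, 20302164 to 27393969 with actinomycin D and 12235068 to 17535685 in the controls. The fewest counts of any of the 8 genes in a library were 154, for POLR2I, and overlapping genes and copies named below had as few as 7 (POLR2J2), 11 (POLR2J4) and 12 (GCOM1). Of 10 epithelial markers chosen for HCT116, CDX1 was at 0 in all groups and LGALS4 at 0 in the controls. Their summed level was 1613 to 1688 CPM with POLR1A depleted, 2247 to 2277 with POLR2A depleted, 2658 to 2859 with actinomycin D and 3079 to 3251 in controls. KRT8 and KRT18 made up most of these sums. Single-gene CPM are TMM-scaled, with factors of 0.91 to 0.92 for actinomycin D and 0.95 to 1.05 for controls. They therefore do not add up to these sums. Of the 7 epithelial markers tested, 0 were called higher and 6 lower with POLR1A depleted. With POLR2A depleted 1 was higher and 4 lower, and with actinomycin D 2 were higher and 2 lower. The shares of all genes called are given below. With actinomycin D, EPCAM (274 against 195 CPM) and CDH1 (119 against 85.8 CPM) rose. KRT18 was among those that fell (718 against 1038 CPM), and KRT8 was not called (1930 against 1851 CPM). The 6 mesenchymal markers summed to 39.5 to 41.4, 28.1 to 32.8, 15.7 to 17.5 and 10.8 to 13.9 CPM in the same order. Whether these shifts bear on the Pol II genes was not tested.

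Under TMM, POLR2A mRNA was called higher than controls in all 3 treated groups, by most in the degron lines. POLR2A is the protein targeted in 1 of these lines. The actinomycin D call was lost under some other settings, such as library totals alone (log2 0.07). Scaling to mitochondrial messenger RNAs put actinomycin D (log2 1.11) above POLR2A depletion (0.80) and below POLR1A depletion (1.20). The order of the groups therefore depended on the scaling. The genes for the partner subunits of POLR2A, also under TMM, differed from controls by at most 0.62 (log2) in the degron lines, in either direction. With actinomycin D 6 of these 7 rose. With POLR1A depleted, 3 of the 8 genes were higher and 2 lower, against 39.1% of all genes called in either direction, 20.6% higher and 18.6% lower. With POLR2A depleted, 3 were higher and 1 lower, against 61.4% of all genes called, 33.2% higher and 28.2% lower. With actinomycin D, 7 were higher and 0 lower, against 53.4% of all genes called, 24.9% higher and 28.5% lower. The median log2 fold change of the 8 genes was 0.07 with POLR1A depleted, 0.06 when POLR2A was depleted and 0.44 with actinomycin D, beside 0.01, 0.08 and -0.06 over all genes tested. These comparisons share the same control libraries. With libraries scaled to mitochondrial messenger RNAs the counts were 5 higher and 0 lower with POLR1A depleted, 1 higher and 4 lower with POLR2A depleted and 8 higher and 0 lower with actinomycin D, and with library totals alone they were 4 and 2, 4 and 1, and 6 and 1. Whether the mitochondrial RNAs themselves changed with treatment was not tested.

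**Figure D1:**
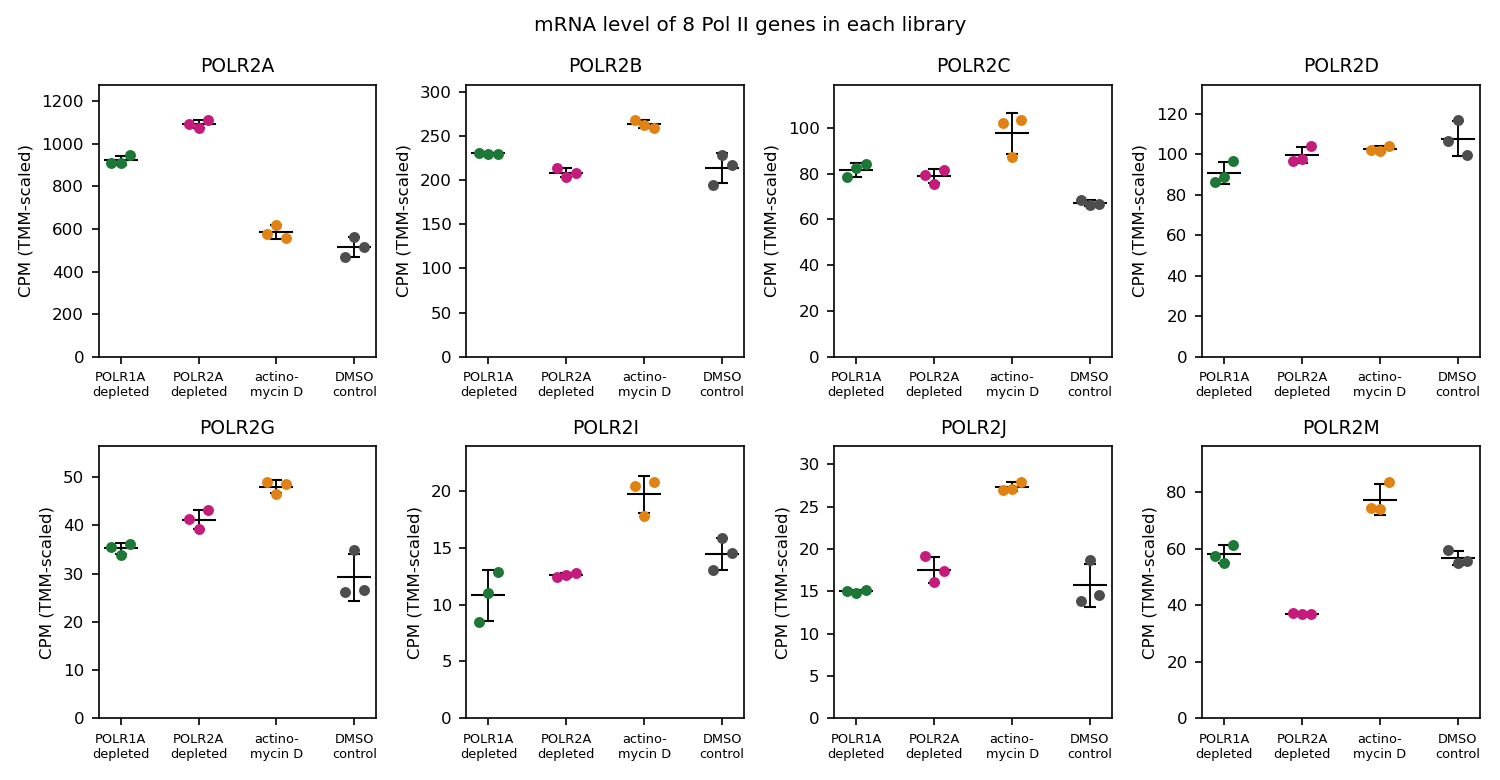
Level of each of the 8 genes in CPM (TMM-scaled, linear axes from 0) in every library; points are libraries, horizontal lines group means and vertical bars SD (n = 3). POLR2A is highest in the POLR2A-depleted libraries, at 1073 to 1110 CPM, while POLR2C, POLR2G, POLR2I, POLR2J, POLR2M and POLR2B are highest with actinomycin D.

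POLR2A (ENSG00000181222, chr17:7484366-7514616, plus strand, GRCh38, protein-coding) encodes the largest subunit and holds the catalytic magnesium. Its level was 908, 910 and 945 CPM in the POLR1A-depleted libraries, 1094, 1073 and 1110 CPM in the POLR2A-depleted ones, 576, 620 and 558 CPM with actinomycin D and 468, 561 and 514 CPM in controls. Every library of the degron lines lay above every other library, the POLR2A-depleted ones highest, and the actinomycin D and control ranges touched, with the lowest actinomycin D library just under the highest control. Against controls the fold was 1.79 with POLR1A depleted (log2 0.84, SE 0.06, adjusted p = 1.85e-10) and 2.12 with POLR2A depleted (log2 1.09, SE 0.06, adjusted p = 1.46e-12). With actinomycin D the fold was 1.14 (log2 0.19, SE 0.06, adjusted p = 0.0107), and this call was lost without actinomycin D replicate 2 (log2 0.15, adjusted p = 0.0591), with libraries scaled by their totals (log2 0.07) and in a fit of those 6 libraries alone (log2 0.14). The POLR1A-depleted level was below the POLR2A-depleted one (log2 -0.25, SE 0.06, adjusted p = 0.000966), so neighbouring groups in the order POLR2A-depleted, POLR1A-depleted, actinomycin D, control all differed under this test.

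POLR2B (ENSG00000047315, chr4:56977722-57031168, plus strand) encodes the second-largest subunit, which closes the active centre opposite POLR2A. It had 231, 230 and 230 CPM with POLR1A depleted, 214, 204 and 208 CPM with POLR2A depleted, 268, 262 and 259 CPM with actinomycin D and 195, 228 and 217 CPM in controls. The actinomycin D libraries stood above all others, and the control range overlapped the POLR2A-depleted one and ended just below the POLR1A-depleted one. With actinomycin D the gene rose by 0.30 on the log2 scale (SE 0.05). The differences from controls were 0.11 with POLR1A depleted (95% interval 0.00 to 0.22, adjusted p = 0.119) and -0.04 with POLR2A depleted (interval -0.15 to 0.08, adjusted p = 0.594), neither of them called. These hung on single controls, since without control replicate 2 the POLR1A value was called at 0.17 and without control replicate 1 the POLR2A value was called at -0.12. With library totals alone the POLR1A value was also called, at 0.15, and with mitochondrial scaling both were, at 0.47 and -0.32. Its exons share 463 bases with those of NOA1 on the other strand, which averaged 30.4, 30.0, 21.0 and 49.0 CPM in the POLR1A-depleted, POLR2A-depleted, actinomycin D and control groups, and without a known strand setting reads there cannot be told apart.

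**Figure D2:**
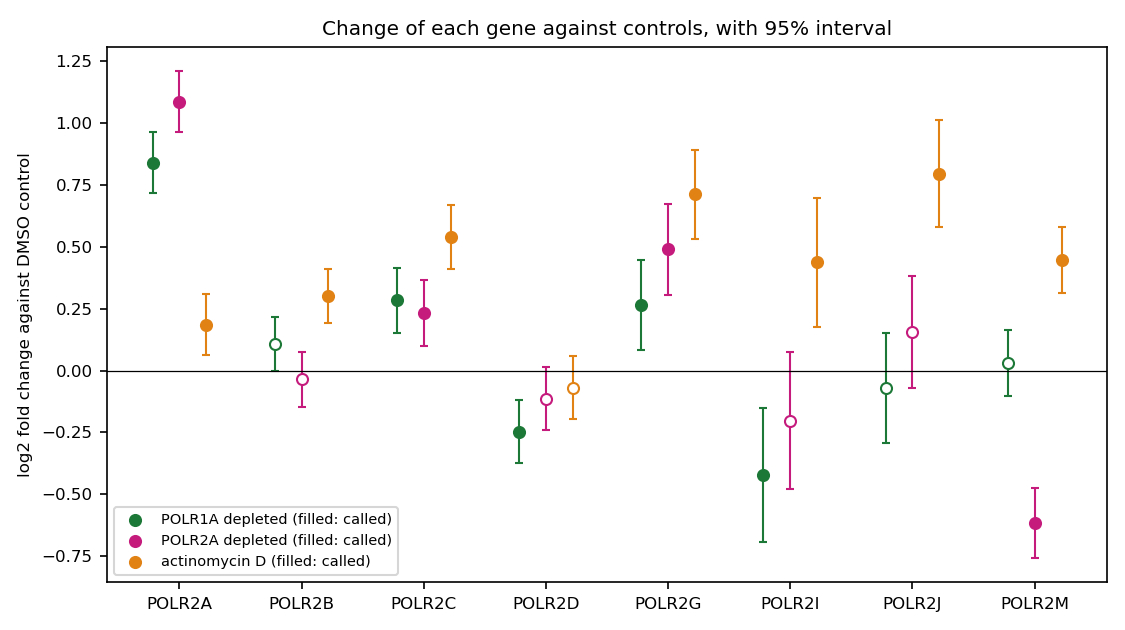
Log2 fold change of each gene against the DMSO controls (vertical axis) for the 3 treated groups, with 95% intervals; filled points have an adjusted p under 0.05 and open points do not. POLR2A stands at 0.84 and 1.09 in the degron lines, POLR2M at -0.62 with POLR2A depleted, and 7 of 8 genes are filled above 0 with actinomycin D.

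POLR2C (ENSG00000102978, chr16:57462387-57472010, plus strand), whose product starts assembly together with that of POLR2J, was called higher in each treated group. Its values were 78.4, 82.4 and 84.1 CPM with POLR1A depleted, 79.4, 75.5 and 81.6 CPM with POLR2A depleted, 102, 87.4 and 103 CPM with actinomycin D and 68.4, 66.1 and 66.7 CPM in controls. All 9 treated libraries exceeded all 3 controls. The log2 fold changes were 0.28 (SE 0.06) with POLR1A depleted, 0.23 (SE 0.06) with POLR2A depleted and 0.54 (SE 0.06) with actinomycin D, and the degron lines were not called different from each other (log2 0.05, interval -0.08 to 0.18). The call with POLR2A depleted was lost without the low-count filter (log2 0.13, adjusted p = 0.162) and with mitochondrial scaling (log2 -0.07).

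POLR2J (ENSG00000005075, chr7:102473118-102478907, minus strand) had 14.99, 14.8 and 15.2 CPM with POLR1A depleted, 19.2, 16.1 and 17.4 CPM with POLR2A depleted, 27.01, 27.1 and 27.96 CPM with actinomycin D and 13.8, 18.6 and 14.6 CPM in controls. All 3 actinomycin D libraries lay above the control range, at a log2 fold change of 0.80 (SE 0.10), and 1 POLR2A-depleted library did. The degron lines were at -0.07 (interval -0.29 to 0.15) and 0.16 (interval -0.07 to 0.38) against controls, not called, and the second became 0.28 and called without control replicate 2. This gene has copies that may share some of its reads: POLR2J2 (chr7:102665368-102671629), POLR2J3, listed under ENSG00000168255 (chr7:102537918-102572653) and ENSG00000285437 (chr7:102562133-102572583), and POLR2J4 (chr7:43940895-44019175). Merged exons cover 1355 bases in POLR2J, 2065 in POLR2J2, 3190 and 7195 in the POLR2J3 entries and 6492 in POLR2J4, which is not classed as protein-coding. How alike their sequences are was not tested. Under ENSG00000285437 POLR2J3 averaged 33.1 CPM with POLR1A depleted, 30.7 with POLR2A depleted, 15.7 with actinomycin D and 30.7 in controls, a log2 fold change of -0.96 (SE 0.10) with actinomycin D. Its other entry averaged 6.72, 12.6, 13.2 and 7.74 CPM in that order of groups, POLR2J2 averaged 4.64, 3.44, 1.32 and 4.98 CPM, and POLR2J4 averaged 1.51, 10.2, 1.89 and 1.34 CPM. POLR2J2 fell with actinomycin D (log2 -1.89, SE 0.62) and POLR2J4 rose with POLR2A depleted (log2 2.90, SE 0.36). With the POLR2J copies summed, the actinomycin D difference was -0.02 (adjusted p = 0.794) and the POLR2A-depleted one 0.30 (adjusted p = 0.000272). The call for POLR2J with actinomycin D therefore holds for the counts as divided among the copies and not for their sum. That sum also counts reads of exon bases that the shorter POLR2J does not have.

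POLR2D (ENSG00000144231, chr2:127843551-127858157, minus strand) and POLR2G (ENSG00000168002, chr11:62761544-62766710, plus strand) encode the stalk, which in budding yeast can leave the core enzyme and contacts the emerging RNA. POLR2D had 86.6, 88.9 and 96.9 CPM with POLR1A depleted, 97.0, 97.7 and 104 CPM with POLR2A depleted, 102, 101 and 104 CPM with actinomycin D and 107, 117 and 99.7 CPM in controls. Its POLR1A-depleted libraries were the lowest and fell by 0.25 on the log2 scale (SE 0.06, adjusted p = 0.00232). The POLR2A-depleted and actinomycin D ranges overlapped the controls, with differences of -0.11 (interval -0.24 to 0.01) and -0.07 (interval -0.19 to 0.06), and POLR2D was the single gene of the 8 not called with actinomycin D. Without control replicate 3 the POLR2A-depleted value was called, at -0.19, as it was without the low-count filter (-0.22) and with mitochondrial scaling (-0.41). The actinomycin D value was called lower with library totals alone (-0.19, adjusted p = 0.0113) and higher with mitochondrial scaling (0.84).

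POLR2G had 35.6, 33.9 and 36.1 CPM with POLR1A depleted, 41.2, 39.2 and 43.1 CPM with POLR2A depleted, 49.1, 46.5 and 48.5 CPM with actinomycin D and 26.2, 34.8 and 26.6 CPM in controls. Control replicate 2 stood apart from the other controls and within the POLR1A-depleted range, and the remaining groups lay in separate steps above. The log2 fold changes were 0.26 (SE 0.09, adjusted p = 0.0202) with POLR1A depleted, 0.49 (SE 0.09) with POLR2A depleted and 0.71 (SE 0.09) with actinomycin D. The first of these lost its call without POLR1A-depleted replicate 1 or 3 (log2 0.26 and 0.25), without control replicate 1 or 3 (log2 0.20 for each) and with DESeq2 (adjusted p = 0.0671). The POLR2A-depleted one lost its call with mitochondrial scaling (log2 0.21, adjusted p = 0.263).

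POLR2I (ENSG00000105258, chr19:36113710-36115346, minus strand) encodes a zinc-ribbon subunit that in yeast supports accurate start sites and RNA proofreading. It had 8.45, 11.03 and 12.9 CPM with POLR1A depleted, 12.5, 12.6 and 12.8 CPM with POLR2A depleted, 20.4, 17.8 and 20.8 CPM with actinomycin D and 13.04, 15.8 and 14.5 CPM in controls. No POLR1A-depleted or POLR2A-depleted library reached the lowest control, and no actinomycin D library was as low as the highest control. With POLR1A depleted it fell by 0.42 on the log2 scale (SE 0.13, adjusted p = 0.0125), a call lost without POLR1A-depleted replicate 1 (log2 -0.27), without control replicate 2 (log2 -0.34) and with mitochondrial scaling (log2 -0.06, adjusted p = 0.846). With POLR2A depleted the difference was -0.20 (interval -0.48 to 0.07), called lower without the low-count filter (-0.31) and with mitochondrial scaling (-0.47), and with actinomycin D the gene rose by 0.44 (SE 0.13, adjusted p = 0.00537). Its exons share 417 bases with those of TBCB on the other strand, which averaged 41.8, 33.1, 62.6 and 39.2 CPM in the POLR1A-depleted, POLR2A-depleted, actinomycin D and control groups. The strand setting of the counting is not given in the sources used here, so reads of POLR2I and TBCB there cannot be told apart.

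POLR2M (ENSG00000255529, chr15:57706629-57782762, plus strand) encodes GDOWN1, which makes Pol II depend on the Mediator complex for activated initiation. It had 57.6, 55.2 and 61.5 CPM with POLR1A depleted, 37.3, 36.9 and 36.9 CPM with POLR2A depleted, 74.4, 74.0 and 83.9 CPM with actinomycin D and 59.6, 55.2 and 55.8 CPM in controls. The POLR2A-depleted libraries lay below all controls and the actinomycin D libraries above them, while the POLR1A-depleted and control ranges overlapped. Against controls the log2 fold change was 0.03 (interval -0.10 to 0.17, adjusted p = 0.754) with POLR1A depleted, -0.62 (SE 0.07, adjusted p = 8.48e-08) with POLR2A depleted and 0.45 (SE 0.06, adjusted p = 3.33e-06) with actinomycin D. Of the 8 genes POLR2M alone was called lower with POLR2A depleted under TMM with the low-count filter, and the exceptions under other settings were POLR2B, POLR2D and POLR2I, as given with those genes. It shares 1387 exonic bases with GCOM1 on the same strand, at mean levels of 6.34, 1.69, 3.50 and 3.48 CPM in the order of groups above. Summing POLR2M with GCOM1 and MYZAP changed none of its calls. MYZAP was not listed as overlapping POLR2M and had 0 counts in POLR2A-depleted replicate 1.

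Under TMM, POLR2A differed in direction from the partners called in both comparisons of actinomycin D with a degron line. Between the degron lines POLR2G was called lower along with POLR2A. Actinomycin D against POLR1A depletion called 7 of the 8 genes higher and 1, POLR2A, lower (log2 -0.66, SE 0.06), against 56.2% of all genes called, 24.4% higher and 31.8% lower. Actinomycin D against POLR2A depletion called 6 higher and again POLR2A lower (log2 -0.90, SE 0.06), against 70.9% of all genes called, 31.1% higher and 39.8% lower. With libraries scaled to their mitochondrial messenger RNAs these POLR2A differences were -0.09 (not called) and 0.30 (called higher). The POLR2G call against POLR2A depletion was lost without POLR2A-depleted replicate 2 (log2 0.21, adjusted p = 0.0546), with the DESeq2 Wald test (log2 0.22, adjusted p = 0.0574), with 1 CPM required in 3 libraries (log2 0.16) and with library totals alone (log2 -0.02). Library totals alone also ended the calls of POLR2B, POLR2C and POLR2D against POLR1A depletion (log2 0.03, 0.09 and 0.02) and of POLR2C against POLR2A depletion (log2 0.07), and turned POLR2D to a called -0.20 there, while POLR2D was called higher without the low-count filter (log2 0.24). POLR2M was 2.09-fold higher with actinomycin D than with POLR2A depleted, POLR2I 1.56-fold and POLR2J 1.56-fold. With its copies summed, POLR2J was instead called lower than with POLR2A depleted (log2 -0.33, edgeR adjusted p = 8.28e-05). Against POLR1A depletion that sum was not called (log2 -0.04). POLR1A depletion against POLR2A depletion called POLR2B (log2 0.14) and POLR2M (log2 0.65) higher and POLR2A (log2 -0.25) and POLR2G (log2 -0.23) lower, against 62.2% of all genes called, 29.1% higher and 33.2% lower. Of these the POLR2B call was lost without POLR2A-depleted replicate 2 (log2 0.11), with DESeq2 size factors or the DESeq2 Wald test (log2 0.07 each), with library totals alone (log2 0.06) and with 1 CPM required in 3 libraries (log2 0.07). The POLR2G call was lost without any one of 5 of the 6 libraries, at -0.18 to -0.22, and without the low-count filter, at -0.14. POLR2D and POLR2J, not called between the degron lines, were called lower under both DESeq2 settings, library totals alone, 1 CPM required and a fit of those 6 libraries. These values were -0.14 to -0.21 for POLR2D and -0.23 to -0.31 for POLR2J. With mitochondrial scaling all 8 genes were instead called higher between these lines, POLR2A at 0.40, POLR2D at 0.51, POLR2G at 0.42 and POLR2J at 0.42. POLR2D with actinomycin D against POLR1A depletion (log2 0.18) lost its call without actinomycin D replicate 3 (log2 0.17), POLR1A-depleted replicate 1 (log2 0.15) or POLR1A-depleted replicate 2 (log2 0.17).

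Ratios of 2 counts within a library do not depend on how libraries are scaled. The POLR2A to POLR2B count ratio was 3.93, 3.96 and 4.11 with POLR1A depleted, 5.12, 5.26 and 5.34 with POLR2A depleted, 2.15, 2.37 and 2.15 with actinomycin D and 2.40, 2.46 and 2.37 in controls. The groups did not overlap in this ratio, the degron lines lying above the controls and actinomycin D just below them. Against each of the 7 other genes, the POLR2A ratio of all 3 libraries exceeded every control with POLR1A depleted, by 1.48-fold (POLR2C and POLR2G) to 2.44-fold (POLR2I), and with POLR2A depleted, by 1.498-fold (POLR2G) to 3.27-fold (POLR2M). All 7 ratios share the POLR2A count, so they are not independent of each other or of its rise, known beforehand. The share of all genes with such a ratio was not computed. With actinomycin D the POLR2A ratio was above all controls against POLR2D (1.19-fold) and below them against POLR2B, POLR2G, POLR2I and POLR2J, at 0.65-fold to 0.92-fold, and overlapped the controls against POLR2C and POLR2M. The 0.65-fold value is that of POLR2J (log2 -0.63). With the POLR2J copies summed it turned to log2 0.21. Each exact two-sided permutation test of 3 libraries against 3 can go no lower than p = 0.1, the value of every ratio without overlap (0.1125 after Benjamini-Hochberg adjustment over 54 ratio tests). POLR2A made up 63.8% ± 0.06 of the summed counts of the 8 genes with POLR1A depleted, 68.8% ± 0.19 with POLR2A depleted, 47.9% ± 2.02 with actinomycin D and 50.4% ± 1.04 in controls (SD, n = 3 each).

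**Figure D3:**
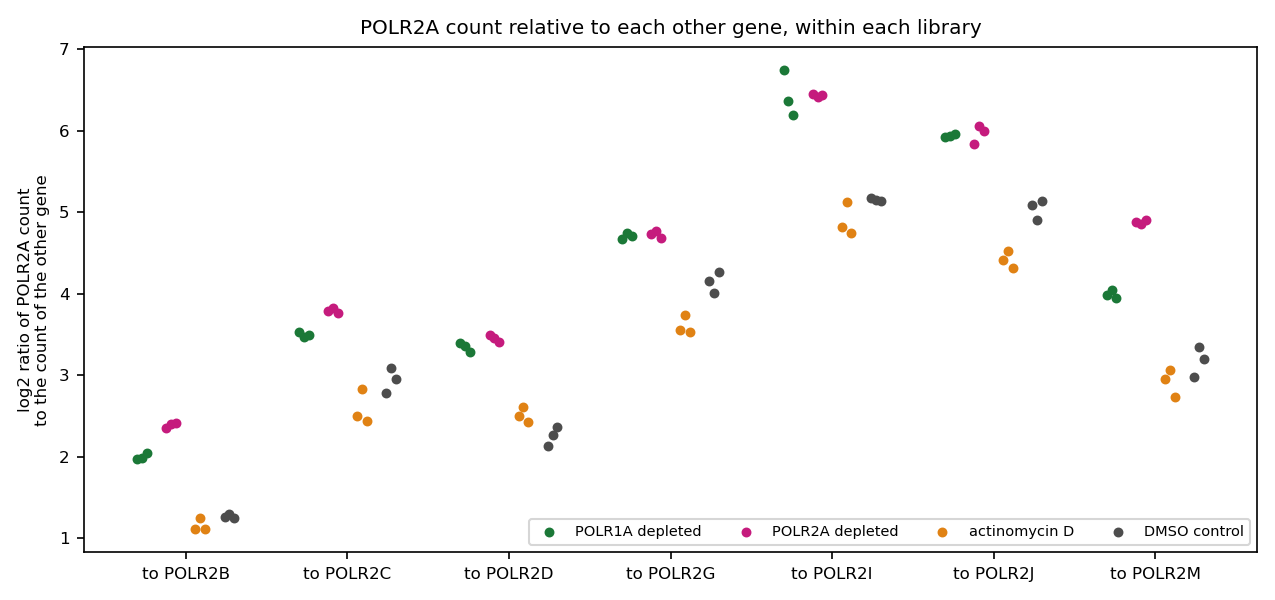
Log2 of the POLR2A count divided by the count of each other gene in the same library (vertical axis), by partner gene (horizontal axis); each point is 1 library. The points of both degron lines lie above all control points for all 7 partners. The actinomycin D points lie above the controls against POLR2D and below them against POLR2B, POLR2G, POLR2I and POLR2J. They overlap the controls against POLR2C and POLR2M. POLR2J is shown without its copies.

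CPM is relative to the other RNAs of a library, so 1 more scaling was tried, to the 13 messenger RNAs of the mitochondrial genome, which Pol II does not transcribe. These made up 5.58% to 5.98% of counts with POLR1A depleted, 8.68% to 10.4% with POLR2A depleted, 3.42% to 3.54% with actinomycin D and 6.06% to 8.17% in controls. Whether the treatments, actinomycin D included, changed these mitochondrial RNAs themselves was not tested. A shift under this scaling therefore cannot be told apart from a change of its reference. That scaling moved the median of all genes against controls to 0.37, -0.20 and 0.82, and the share of calls that were higher to 85.1%, 38.6% and 85.2%, against 52.6%, 54.1% and 46.7% with TMM. POLR2A was then at 1.20 with POLR1A depleted, 0.80 when POLR2A was depleted and 1.11 with actinomycin D, all called, which is 0.83, 1.00 and 0.28 above the median of all genes. The order between degron lines turned, POLR1A against POLR2A depletion reading 0.40, as did actinomycin D against POLR2A depletion at 0.30. POLR2M with POLR2A depleted was at -0.92, and all 8 genes were called higher with actinomycin D, POLR2D included at 0.84, which is 0.02 above that median. POLR2D and POLR2J with POLR1A depleted and POLR2C and POLR2J with POLR2A depleted changed sign, at 0.10, 0.30, -0.07 and -0.12, none of them called.

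**Figure D4:**
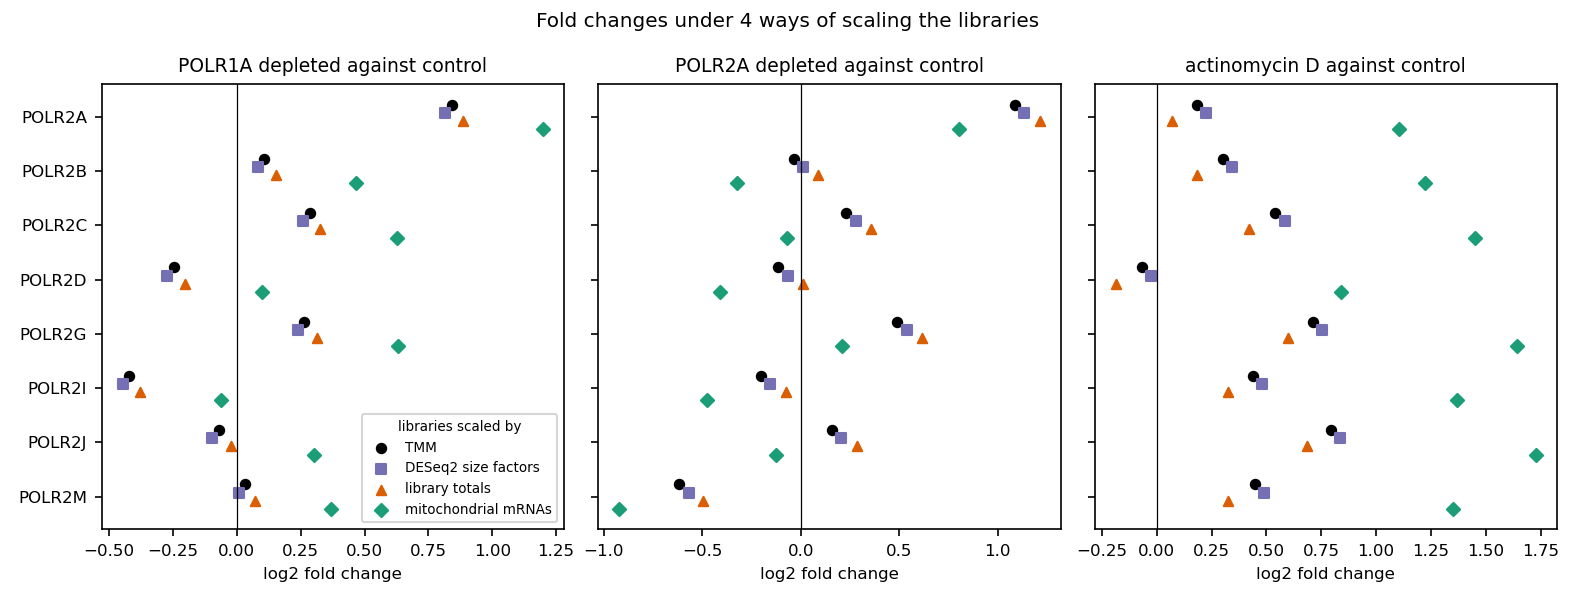
Log2 fold change against controls (horizontal axes, which differ between panels) of each gene under 4 scalings of the libraries. Mitochondrial scaling moves all 8 genes together, up with POLR1A depleted and with actinomycin D and down with POLR2A depleted, and POLR2A stays right of 0 in all panels.

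Start-region sequences are shown for POLR2A, which had the largest fold change of the 8 genes in both degron lines, and for POLR2B and POLR2C, the pair whose levels ran most alike over the 12 libraries (root mean square difference of centred log2 CPM 0.13, against 0.47 for POLR2A and POLR2G, the gene nearest to POLR2A among the 8). They come from RefSeq on GRCh38.p14, run from 250 bases before to 50 after the listed start, and were found for 5 of the 8 genes (POLR2A, POLR2B, POLR2C, POLR2D and POLR2M). POLR2A lies at chr17:7484116-7484415, POLR2B at chr4:56978646-56978945 and POLR2C at chr16:57462429-57462728, all on the plus strand. Capitals mark the GC box GGGCGG, the ETS-factor core CGGAAG and the NRF1 palindrome, searched on both strands.
POLR2A: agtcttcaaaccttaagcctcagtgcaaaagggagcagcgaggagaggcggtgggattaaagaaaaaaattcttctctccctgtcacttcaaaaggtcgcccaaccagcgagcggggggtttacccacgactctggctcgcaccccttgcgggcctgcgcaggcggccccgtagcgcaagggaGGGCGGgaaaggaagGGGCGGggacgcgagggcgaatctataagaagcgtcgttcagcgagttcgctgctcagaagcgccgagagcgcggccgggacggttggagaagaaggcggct
POLR2B: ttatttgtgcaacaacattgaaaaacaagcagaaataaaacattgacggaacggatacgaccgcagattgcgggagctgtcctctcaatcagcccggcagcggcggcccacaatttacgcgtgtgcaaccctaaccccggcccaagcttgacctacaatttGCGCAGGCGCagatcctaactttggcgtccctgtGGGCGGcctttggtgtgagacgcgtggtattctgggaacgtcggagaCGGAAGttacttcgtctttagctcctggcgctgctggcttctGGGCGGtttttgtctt
POLR2C: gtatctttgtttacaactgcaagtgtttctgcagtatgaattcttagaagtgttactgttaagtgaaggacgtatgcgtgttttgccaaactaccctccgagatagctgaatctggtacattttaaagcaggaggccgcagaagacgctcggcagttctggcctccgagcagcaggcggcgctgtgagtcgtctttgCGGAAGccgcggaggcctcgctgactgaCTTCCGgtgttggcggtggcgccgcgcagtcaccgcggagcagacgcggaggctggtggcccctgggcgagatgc
POLR2A held 2 GC boxes, starting 67 and 52 bases before the start, and no ETS core. POLR2B held an ETS core 8 bases before the start, GC boxes 55 bases before and at position 35 after it, and the NRF1 palindrome 89 bases before. POLR2C held ETS cores 53 and 25 bases before the start and no GC box. POLR2D and POLR2M held 2 ETS cores each, so 4 of the 5 regions had one and POLR2A did not, where 19.5% of all 35116 RefSeq start regions of this length do. The GC box was in 45.0% of them, the NRF1 palindrome in 5.78%, TATAAA in 11.5%, CCAAT in 34.6%, TGACGTCA in 1.85% and CACGTG in 7.26%. Of the last 4 only TATAAA was found, once, in POLR2M, 185 bases before the start. In POLR2M the GC box overlaps 1 ETS core. A match is a description of letters and shows no binding.

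The Pol II genes were also set beside the subunits that hold the same place in Pol I and Pol III, starting with the catalytic core. Against controls POLR1A, the largest Pol I subunit, stood at log2 -0.69 with POLR1A depleted, -0.82 when POLR2A was depleted and -0.32 with actinomycin D, all called lower, where POLR2A rose, though POLR1A with actinomycin D turned to 0.59 under mitochondrial scaling. POLR3A, its Pol III counterpart, was at -0.05 (not called), -0.82 and -0.62, the last turning to 0.30. The POLR2A to POLR1A count ratio was 2.89-fold, 3.77-fold and 1.42-fold that of controls in the same order of groups. The POLR2A to POLR3A ratio was 1.86-fold, 3.75-fold and 1.75-fold. None of these ratios overlapped the controls (exact permutation p = 0.1 each, the smallest possible). All of them share the POLR2A count, so they are not independent of its rise, known beforehand. The share of all genes with such a ratio was not computed. In the second-largest place, POLR1B fell in all 3 groups, by 0.92, 1.52 and 1.55, and POLR3B was at -0.10 (not called), -1.96 and -0.88, beside the smaller differences of POLR2B, and the POLR3B value with actinomycin D turned to 0.04.

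Among the smaller positions, POLR1C, which Pol I and Pol III use in the place of POLR2C, fell by 0.81, 0.58 and 1.52 with POLR1A depleted, POLR2A depleted and actinomycin D, where POLR2C rose. POLR1D, in the place of POLR2J, was at -0.25, 0.11 (not called) and -0.47. For the stalk, POLR1F was at 0.30, 0.14 (not called) and -0.62 and CRCP at -0.16 (not called), -0.69 and -0.24. For the zinc ribbon, POLR1H was at -0.54, -0.27 (not called) and -0.56 and POLR3K at -0.997, -0.33 and 0.16 (not called), beside -0.42, -0.20 (not called) and 0.44 for POLR2I. Under mitochondrial scaling the called falls of POLR1D, POLR1F, CRCP and POLR1H with actinomycin D turned, to 0.44, 0.31, 0.69 and 0.37, as did that of POLR1D with POLR1A depleted, to 0.10. The differences between these smaller subunits and their Pol II counterparts were not tested.

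**Figure D5:**
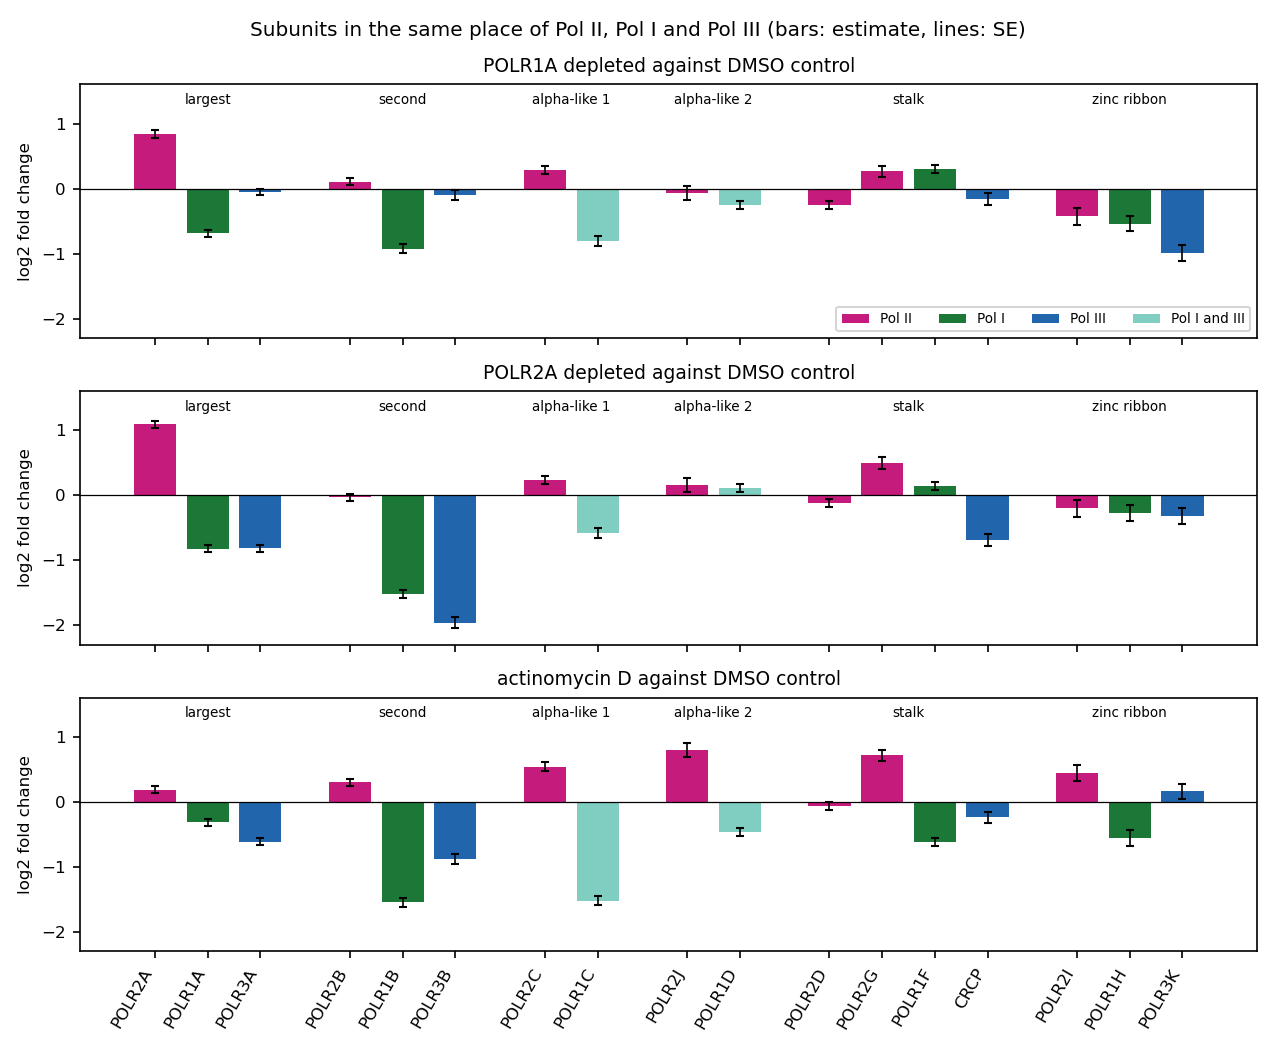
Log2 fold change against controls (bars, with SE) of subunits that hold the same place in Pol II, Pol I and Pol III, 1 panel for each treated group. In the largest and second-largest places POLR1A and POLR1B lie below 0 in all panels, at -0.32 to -1.55, while POLR2A lies above 0; with mitochondrial scaling POLR1A with actinomycin D is at 0.59.

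Of 7 subunits that Pol II shares with other polymerases, or that Pol I and Pol III share, 0 were higher and 4 lower with POLR1A depleted, 2 higher and 2 lower with POLR2A depleted, and 4 higher and 2 lower with actinomycin D, with medians of -0.16, 0.13 and 0.43. The 5 of these that are part of Pol II followed its own subunits with actinomycin D: POLR2E (log2 0.76), POLR2F (0.43), POLR2K (0.54) and POLR2L (0.82) rose, and POLR2H was at 0.05, not called. Of 6 Pol I subunits, 1 was higher and 5 lower, 0 higher and 4 lower, and 0 higher and 6 lower in the same order of groups (medians -0.80, -0.66 and -0.61). Of 11 Pol III subunits, 1 was higher and 5 lower, 1 higher and 10 lower, and 2 higher and 8 lower (medians -0.16, -0.69 and -0.62). Of all genes, 20.6% were called higher and 18.6% lower with POLR1A depleted. These shares were 33.2% and 28.2% with POLR2A depleted, and 24.9% and 28.5% with actinomycin D. Under mitochondrial scaling the actinomycin D medians were 1.38 for the shared, 0.31 for the Pol I and 0.30 for the Pol III subunits, beside 1.36 for the 8 Pol II genes, so falls there turned while the median of the Pol II genes was still higher than those of Pol I and Pol III. The POLR2A-depleted medians under that scaling were -0.17, -0.95 and -0.95, beside -0.22 for the Pol II genes, and the POLR1A-depleted ones 0.20, -0.45 and 0.19, beside 0.42.

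Factors that act on the 8 subunits were counted by list. Of the 18 of 19 listed factors found that assemble Pol II or carry it into the nucleus, 4 were higher and 6 lower with POLR1A depleted, 5 higher and 6 lower with POLR2A depleted, and 12 higher and 5 lower with actinomycin D. TTI1, a partner of the HSP90 co-chaperone R2TP, was called lower in all 3 groups (log2 -0.73, -0.61 and -0.78, the last 0.14 under mitochondrial scaling), and PIH1D1, a subunit of R2TP, rose with actinomycin D (log2 0.64). Of 24 genes of Pol II ubiquitination and turnover, 11 were higher and 9 lower, 2 higher and 17 lower, and 8 higher and 9 lower, with medians of 0.07, -0.45 and 0.04. ARMC5, an adaptor of a ubiquitin ligase that targets POLR2A, was at log2 0.66 with POLR1A depleted, -2.11 when POLR2A was depleted and -2.32 with actinomycin D, all called, and NEDD4, a ubiquitin ligase known to act on POLR2A, was at 1.00, -1.16 and 0.20, all called. Of 25 kinases, phosphatases and partners that act on the POLR2A C-terminal domain, 10 were higher and 3 lower, 3 higher and 15 lower, and 7 higher and 14 lower, with medians of 0.11, -0.33 and -0.30. CTDP1, a phosphatase of that domain, fell by 0.30, 1.17 and 2.50, the kinase gene CDK12 fell with POLR2A depleted by 1.33, and PPP1R10, a phosphatase subunit, fell with actinomycin D by 2.63. Under mitochondrial scaling the actinomycin D medians of the assembly, turnover and C-terminal domain lists were 1.19, 0.94 and 0.61, the POLR2A-depleted ones -0.29, -0.75 and -0.61 and the POLR1A-depleted ones 0.31, 0.43 and 0.46. The shares of all genes called, given with the counts of the Pol II genes, are the background of these counts too.

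No other gene of the 8 was close to POLR2A in its course over the 12 libraries. Among 9797 protein-coding genes whose mean log2 CPM was at least 3, the levels closest to those of POLR2A by root mean square difference were those of CPT2 (0.10), SHOX2 (0.12), DNASE1 (0.14), MYL12A (0.14) and SNX14 (0.14). CPT2 stood at log2 0.66 with POLR1A depleted and 0.94 with POLR2A depleted, both called, and 0.11 with actinomycin D, not called. POLR2G, the nearest of the 8, ranked 1538, and POLR2M ranked 7322.

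Levels can be compared between genes only per length. Per kilobase of merged exons (GENCODE 29), POLR2A stood highest in controls at 61.5 ± 5.55 CPM per kb, followed by POLR2B at 36.2 ± 2.88, POLR2D at 20.6 ± 1.67, POLR2C at 17.0 ± 0.298, POLR2G at 15.2 ± 2.54, POLR2J at 11.6 ± 1.91, POLR2I at 11.4 ± 1.10 and POLR2M at 8.65 ± 0.368 (SD, n = 3 each). From POLR2C down to POLR2I each gene's controls overlapped those of the next, while POLR2A, POLR2B, POLR2D and POLR2M stood clear of their neighbours. With the longest transcript as the length, POLR2A and POLR2B still came first and POLR2C stood above POLR2D, while POLR2G moved above POLR2C or not with the transcripts admitted. With POLR2A depleted POLR2A reached 131 ± 2.27 CPM per kb, while POLR2B stood at 35.3 ± 0.844. The proteins stand in equal number in the complex, apart from POLR2M, which part of Pol II lacks.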

How the data were processed

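Groups and replicate numbers came from the sample titles. The authors deposited estimated counts, unnormalized, of which 76.1% were whole, and per the labels a stranded total RNA kit with removal of ribosomal RNA was used. RSEM 1.3.3, HTSeq 2.0.2, STAR and DESeq2 1.44.0 appear in the submitters' processing notes, with GRCh38 and hg38, and none is tied to a step. For the counting, annotation release and strand setting were not given in the sources used here. Spans and exons came from GENCODE 29.

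Estimated counts were rounded and tested with edgeR 4.0.16 in R 4.3.3: filterByExpr left 23593 of 63241 genes, libraries were scaled by TMM, and 1 robust quasi-likelihood fit over all 12 libraries (8 residual degrees of freedom) gave 6 comparisons, each adjusted over all genes tested. This step was tested on simulated data. Ratios within libraries were compared by exact two-sided permutation tests in scipy 1.17.1. The SE of a log2 fold change is its size divided by the square root of the F statistic of the quasi-likelihood test. Intervals were built from that SE. Depth limits POLR2I and POLR2J most.

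The alternatives were other scalings and filters, DESeq2 1.42.0, counts not rounded, a replicate block, summed genes, fits of 2 groups and leaving out each library. The genes summed were POLR2J with its copies and POLR2M with GCOM1 and MYZAP. The genes, lists, tests and alternatives were chosen with earlier results of these data known. Named are the 8 genes, the subunits in the same place of Pol I and Pol III (1 is not reported here), the POLR2J copies, some of the called genes with the 3 largest changes of each other list, and the 5 protein-coding genes most like POLR2A. Replicates differed by more than counting noise, and none was merged.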

Additional observations from a re-analysis of the deposited data

Results flagged for a closer look

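POLR2I was called lower with POLR1A depleted and higher with actinomycin D, each against the same controls, and the direct difference between these treatments was called, at 0.86 on the log2 scale (SE 0.13, adjusted p = 4.17e-06, edgeR). All 3 actinomycin D libraries were higher than all 3 POLR1A-depleted ones. The fall with POLR1A depleted was not called without POLR1A-depleted replicate 1, without control replicate 2 or with mitochondrial scaling (log2 -0.06), and its exons overlap those of TBCB on the other strand, whose part in the difference was not tested.

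POLR2M was called higher with actinomycin D and lower with POLR2A depleted, and the direct difference was 1.06 on the log2 scale (SE 0.07, adjusted p = 8.16e-12, edgeR), with all 3 actinomycin D libraries above all 3 POLR2A-depleted ones. This difference was called in the same direction under every alternative run, with adjusted p-values of 1.23e-58 to 3.38e-09.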

How the results depend on the processing

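Of the 48 fold changes of the 8 genes (6 comparisons), 48 kept direction and side of the threshold with unrounded counts and 48 with a replicate block. The number was 45 in fits of 2 groups, 43 with DESeq2 size factors, 41 with the DESeq2 Wald test and 42 without a low-count filter. It was 41 with 1 CPM required in 3 libraries, 42 with the POLR2J and POLR2M sums, 32 with library totals alone and 27 with mitochondrial scaling. Same-numbered replicates did not deviate together (correlations of deviations -0.06 to 0.04), so the numbers do not pair the samples. With the replicate block, against controls, 5 of the 8 genes were called with POLR1A depleted, 4 when POLR2A was depleted and 7 with actinomycin D, as without it. Uncalled differences near 0 changed sign easily. With DESeq2 size factors POLR2B with POLR2A depleted was 0.013 and POLR2C with POLR1A against POLR2A depleted -0.021, and with the DESeq2 Wald test these were 0.012 and -0.021. With library totals alone the same values were 0.090 and -0.028, POLR2D with POLR2A depleted was 0.011, and with actinomycin D against POLR2A depletion POLR2D was -0.20 (called lower) and POLR2G -0.019. Without a low-count filter POLR2D with actinomycin D was 0.021. With 1 CPM required, POLR2M with POLR1A depleted was -0.019, POLR2C between the degron lines -0.023 and POLR2D with actinomycin D against POLR2A depletion -0.015. With mitochondrial scaling POLR2D and POLR2J with POLR1A depleted were 0.10 and 0.30, POLR2C and POLR2J with POLR2A depleted -0.068 and -0.12, and POLR2D with actinomycin D 0.84. Between the degron lines, POLR1A against POLR2A depletion, that scaling gave 0.40 for POLR2A, 0.51 for POLR2D, 0.42 for POLR2G, 0.41 for POLR2I and 0.42 for POLR2J, and actinomycin D against POLR2A depletion gave 0.30 for POLR2A. It raised the genes called between the degron lines to 8, all higher, against 4, and library totals alone lowered those called with actinomycin D against POLR1A depletion to 5, against 8. With the POLR2J copies summed, POLR2J with POLR1A depleted was 0.015 and with actinomycin D -0.023. With actinomycin D it was -0.038 against POLR1A depletion and -0.33 (called lower) against POLR2A depletion. The log2 change of the POLR2A to POLR2J ratio then was 0.79 with POLR2A depleted and 0.21 with actinomycin D, against 0.92 and -0.63. Leaving out 1 library at a time, the genes called against controls ranged from 3 to 5 with POLR1A depleted (3 without POLR1A-depleted replicate 1), and those of the other comparisons stayed within 1.5 times. In those fits POLR2D with actinomycin D ranged from -0.11 to 0.011, and with POLR1A depleted POLR2J from -0.14 to 0.085 and POLR2M from -0.0051 to 0.075. An arm left with 2 libraries shared the spread of the other groups. Per kilobase of the longest protein-coding transcript, controls stood at 247 CPM for POLR2A, 52.0 for POLR2B, 32.6 for POLR2C, 35.3 for POLR2G, 15.8 for POLR2I, 16.8 for POLR2J and 13.5 for POLR2M. With the longest transcript of any class, chosen after seeing the data because the full-length POLR2A transcript is not classed as coding, POLR2A stood at 76.2, POLR2G at 18.8 and POLR2I at 14.6, the others as before. Leaving out libraries in the ratios, also chosen after seeing the data, changed no direction. The causes of these changes were not tested.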
